A study of Mus musculus with 103 samples.

Results

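The subcortical maternal complex is a protein assembly beneath the membrane of the mammalian egg and early embryo. Its genes Nlrp5, Ooep, Tle6, Khdc3 and Padi6 were read as the 5 rows of those names among 7894 genes. The libraries are of single FVB mouse embryos, 21 from whole sperm and 82 from sperm heads, collected as 2-cell embryos 28 hours after a sperm or a sperm head had been injected directly into the oocyte (ICSI). Embryos from whole sperm numbered 12 for rete testis sperm and 9 for cauda epididymis sperm. Embryos from sperm heads numbered 23 for rete heads of males on a Low Protein (LP) diet, 22 for rete heads of Control males, 17 for cauda heads of LP males and 20 for cauda heads of Control males. Rete sperm have just left the testis and cauda sperm are mature and stored. All oocyte donors ate the Control diet. That whole sperm came from Control males is known from the header of the deposited table alone. Each library is 1 embryo, and the labels give neither father nor injection day, so p-values reflect embryo-to-embryo spread and nothing above it.

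The complex is built in the growing oocyte from mRNA and protein that the mother supplies, and its mRNAs decline around the 2-cell stage, when the embryo's own genome is switched on and maternal transcripts are cleared, while the proteins last longer. NLRP5 (also called MATER), OOEP (FLOPED) and TLE6 form its core, and loss of any of them in the mother halts mouse embryos at early cleavage. KHDC3 (FILIA) is a KH-domain-like partner linked to spindle assembly and a correct chromosome number. PADI6, a member of the peptidylarginine deiminase family, is needed for the cytoplasmic lattices of the egg, fibres that store maternal proteins and contain the complex. Transcription of many oocyte genes depends on the factor FIGLA, which binds E-boxes, and on the homeodomain factor NOBOX.

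In the GRCm38.p6 (mm10) assembly, Nlrp5 lies on chromosome 7 at 23385889 to 23441923, Ooep on chromosome 9 at 78376903 to 78378588 and Tle6 on chromosome 10 at 81590904 to 81601185. Khdc3 lies on chromosome 9 at 73101381 to 73106631 and Padi6 on chromosome 4 at 140727355 to 140742643. RefSeq start-site windows, 250 bases before to 50 after a start, were found for all 5 genes, 7 windows in all. The 3 windows below are shown because they hold an E-box (CANNTG) at the same distance, its first base 78 before the start, a distance that was singled out after the sequences were seen. The windows are chr9:78378539-78378838 on the minus strand for Ooep, chr4:140742594-140742893 on the minus strand for Padi6 and chr9:73102148-73102447 on the plus strand for Khdc3, each read along the gene. For Ooep and Padi6 the start is the outer bound of the gene given above. The Khdc3 window lies wholly within its gene's bounds, so its distance is from an internal start. Capitals mark that E-box, the NOBOX element TAATTG, which lies on the opposite strand in both genes that have it, and the GC box GGGCGG.
Ooep: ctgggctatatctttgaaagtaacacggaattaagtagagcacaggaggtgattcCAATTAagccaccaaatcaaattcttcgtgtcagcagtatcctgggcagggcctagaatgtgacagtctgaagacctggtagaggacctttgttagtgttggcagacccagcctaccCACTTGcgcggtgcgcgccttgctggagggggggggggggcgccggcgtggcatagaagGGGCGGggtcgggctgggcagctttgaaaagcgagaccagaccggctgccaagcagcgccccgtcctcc
Padi6: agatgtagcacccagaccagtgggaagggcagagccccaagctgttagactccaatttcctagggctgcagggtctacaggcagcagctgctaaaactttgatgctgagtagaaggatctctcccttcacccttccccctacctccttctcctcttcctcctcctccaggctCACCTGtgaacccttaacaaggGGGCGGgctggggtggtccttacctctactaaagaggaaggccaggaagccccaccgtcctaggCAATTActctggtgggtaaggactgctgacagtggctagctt
Khdc3: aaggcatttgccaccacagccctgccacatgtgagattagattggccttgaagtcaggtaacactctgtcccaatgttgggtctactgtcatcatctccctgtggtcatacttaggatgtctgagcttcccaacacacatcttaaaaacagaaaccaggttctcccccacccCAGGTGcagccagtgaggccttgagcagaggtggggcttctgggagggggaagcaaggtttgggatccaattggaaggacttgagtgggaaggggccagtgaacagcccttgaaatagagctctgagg

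The E-box at that distance read CACTTG for Ooep, CACCTG for Padi6 and CAGGTG for Khdc3. The last of these is CACCTG, the E-box letters of the zona pellucida genes that FIGLA binds, on the other strand. An E-box at exactly this distance was present in 0.484% of 32851 start-site windows of the genome, and CACCTG on either strand in 0.0852%. The distance was picked because these windows share it, so those shares do not measure how unusual the match is. At any place in the window, CACCTG was in 2 of the 7 windows, in 20.2% of all windows and in 17.5% of those of genes in the table. E-boxes anywhere in the window were present in 7 of the 7 windows of these genes, in 72.3% of all windows and in 62.8% of those of genes in the table, so their presence alone is common. The NOBOX element was in 2 of the 7 windows, those of Ooep and Padi6, and in 8% of all windows, or 4.96% of the 7788 windows of genes in the table. The related core TAATTA was in 1 window, of Nlrp5, and in 5.29% of all windows, and the GC box in 4 of the 7 windows, in 35.7% of all and in 62.9% of those of genes in the table. Both strands were searched, a CACCTG also counts as an E-box, and a match is a description of letters.

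All 5 mRNAs were read in every embryo. Levels are in CPM, the reads of a gene scaled to a fixed total of 1000000 per library. In order of mean CPM, Padi6 ranked 833 of 7894 genes, Nlrp5 1031, Tle6 1578, Ooep 2024 and Khdc3 4315. Per kilobase of transcript the medians over all embryos were 95.1 CPM for Padi6, 82.2 for Ooep, 70.0 for Tle6, 56.6 for Nlrp5 and 21.2 for Khdc3. The value of Ooep used the RefSeq bounds of its transcript, and with the longer GENCODE model it was 46.4 CPM per kilobase. Khdc3 was the lowest of the 5 per kilobase in 87 embryos of all 6 groups, while Padi6 was the highest in 48 and Ooep in 39. With the GENCODE length Khdc3 was the lowest in 79, and Padi6 was the highest in 69, Tle6 in 21 and Ooep in 7, so the place of Ooep depends on the length used. With either length Khdc3 was the lowest in most embryos, and the order of the other 4 changed from embryo to embryo. The lowest value of the set, Khdc3 at 2.92 CPM in rete LP embryo 11, corresponds to about 14 reads. In the shallower libraries of rete LP embryo 6 and cauda Control embryo 22 Khdc3 had about 4 reads each, so its low end carries large counting error. Sequencing depth, worked out from the smallest steps between values, was 529863 to 6058308 reads per embryo, with group medians of 2806572 and 4091157 for rete and cauda whole sperm and of 1056545 to 1197679 in the 4 head groups.

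**Figure D1:**
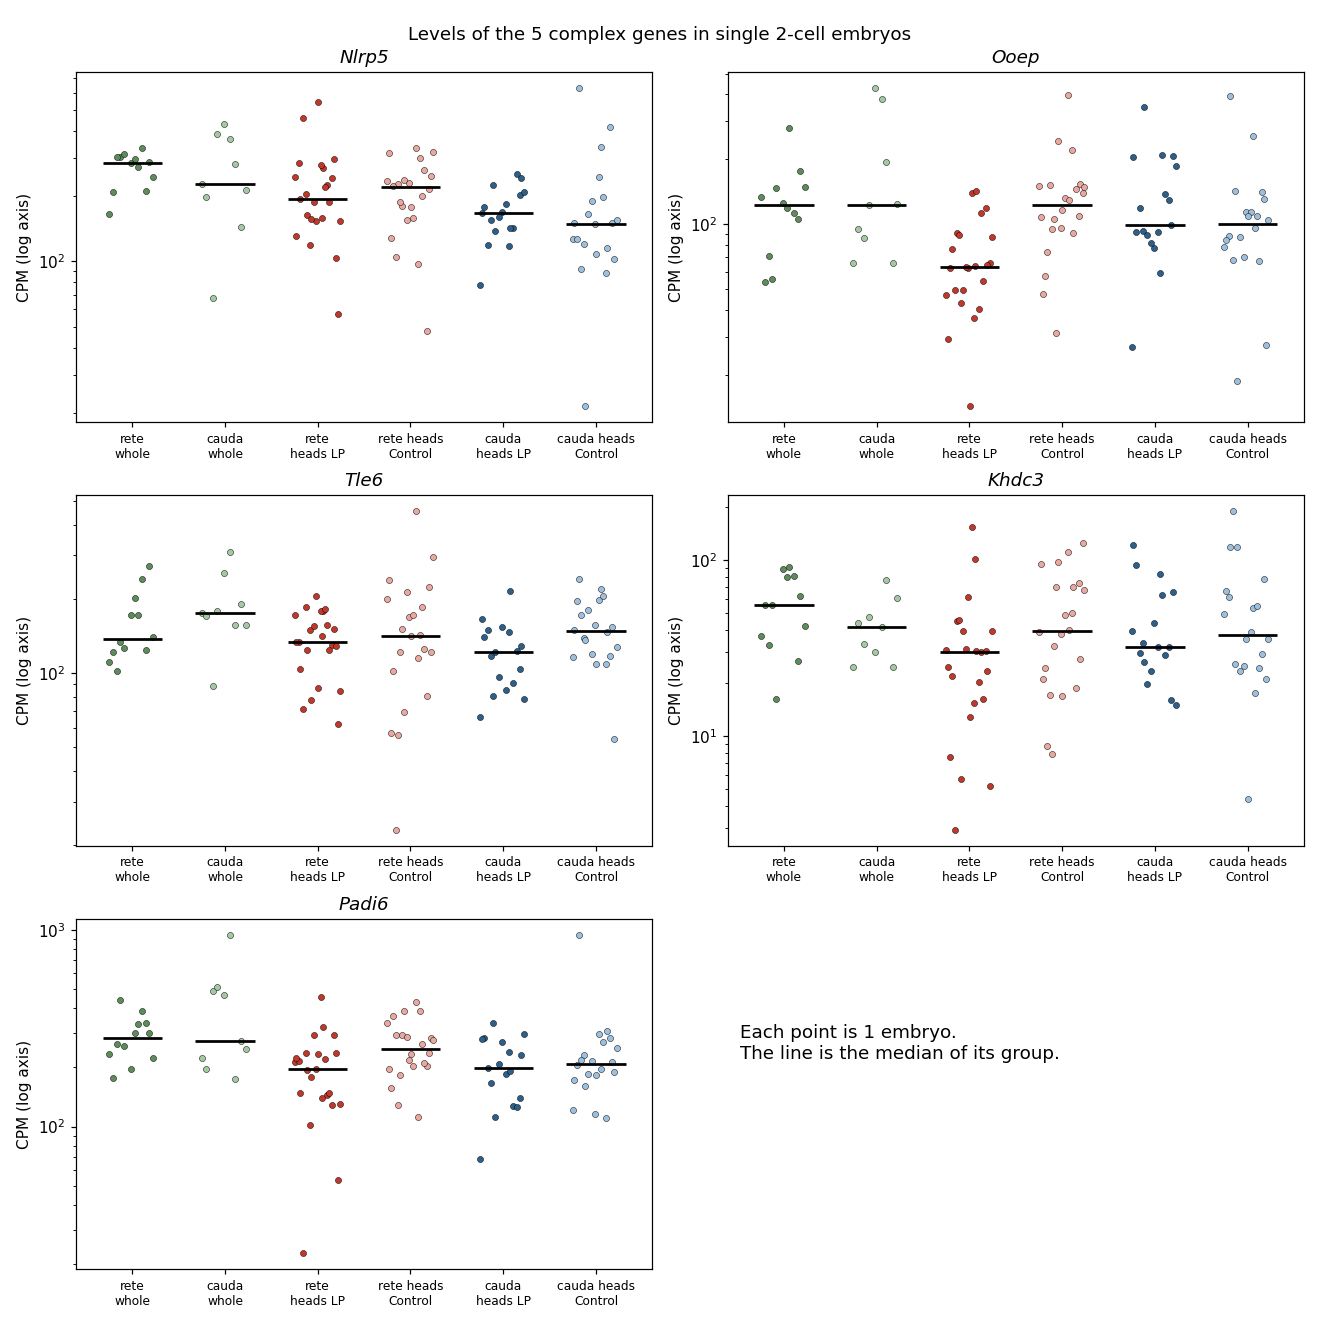
Each point is 1 embryo, with the CPM of a gene on a log axis, the 6 embryo groups along the horizontal axis and the median of a group as a line. Ooep is low in rete LP head embryos, with a median of 63.5 CPM, against 123 CPM in rete Control head embryos, and in every panel the groups overlap.

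The first comparison asked whether the father's LP diet altered these maternal mRNAs in embryos made with rete sperm heads. Ooep, the small KH-like core subunit, was lower in LP embryos. It had a lowest, median and highest level of 14.3, 63.5 and 142 CPM in the 23 rete LP embryos, against 31.2, 123 and 399 CPM in the 22 rete Control embryos. Of the LP embryos 21 lay below the Control median, 8 Control embryos lay above the highest LP embryo, and the rest of the ranges overlapped. On the log2(CPM + 1) scale Ooep fell by 0.90 ± 0.25 (standard error; limma adjusted p = 0.0401 over all genes tested). It was the 1 gene of 5 that passed the threshold of 0.05, where 1.49% of all 7894 genes passed in either direction and 1.1% were lower. An unadjusted limma p under 0.05 was seen for 3 of the 5 genes and for 22.9% of all genes. CPM is a share of the library, so fewer molecules of a gene and more of the rest cannot be told apart.

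The call was close to the threshold. Without any 1 of the 45 embryos compared, the log2 fold change stayed between -0.99 and -0.81 and the adjusted p between 0.0197 and 0.0778, and the call held in 28 of 45. With the ribosome biogenesis score as a covariate it was -0.68 (adjusted p = 0.173). That score, the mean of log2(CPM + 1) over 62 ribosome production genes, had a median of 7.18 (3.72 to 7.92) in rete LP and 6.82 (3.23 to 7.65) in rete Control embryos. A score over 3 median absolute deviations below that of all head embryos was seen in 1 of 23 rete LP and 6 of 22 rete Control embryos, and 5 of these 6 Control embryos were above their group's median for Ooep.

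The other core genes, Nlrp5 and Tle6, gave no call. Nlrp5, the NOD-like receptor family subunit, had a lowest, median and highest level of 56.9, 195 and 547 CPM in rete LP embryos, against 47.7, 221 and 334 CPM in rete Control embryos. Its log2 fold change was 0.03 ± 0.22, with a 95% interval of -0.40 to 0.47 (adjusted p = 0.941). Tle6, the Groucho-related subunit, had 62.0, 134 and 206 CPM in rete LP embryos, against 23.1, 142 and 453 CPM in rete Control embryos. Its log2 fold change was -0.03 ± 0.20, with a 95% interval of -0.42 to 0.35 (adjusted p = 0.933). The upper end of the Tle6 range was shorter in LP embryos, 5 Control embryos lying above the highest LP embryo. Both intervals exclude a fall as large as the 0.90 measured for Ooep.

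Padi6 and Khdc3 lay lower in LP embryos without passing the threshold. Padi6 had a lowest, median and highest level of 22.8, 196 and 456 CPM in rete LP embryos, against 112, 249 and 430 CPM in rete Control embryos, and 19 of 23 LP embryos lay below the Control median. Its log2 fold change was -0.51 ± 0.21 (adjusted p = 0.142). Khdc3 had 2.92, 30.2 and 155 CPM in rete LP embryos, against 7.88, 39.4 and 126 CPM in rete Control embryos, and 17 of 23 LP embryos lay below the Control median. Its log2 fold change was -0.66 ± 0.33 (adjusted p = 0.217). In rete LP embryo 11, which had the fewest detected genes of all embryos, both were the lowest of their group.

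**Figure D2:**
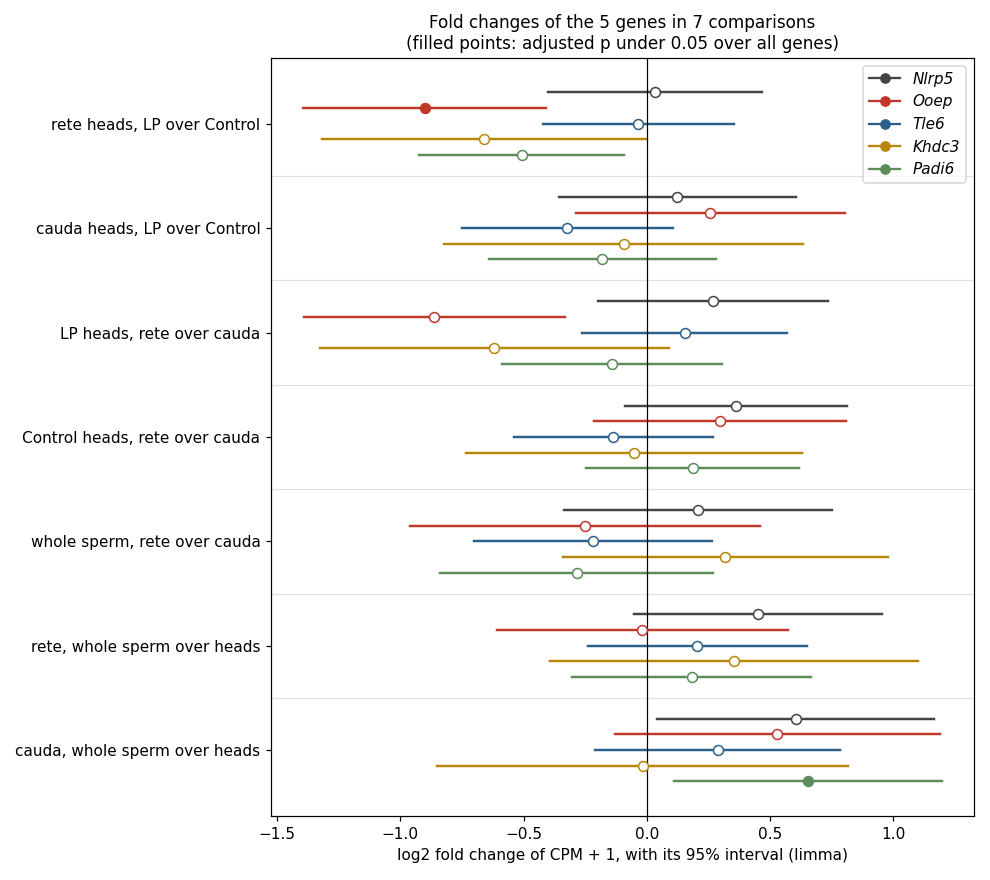
Log2 fold changes of CPM + 1 with 95% intervals from limma on the horizontal axis, for the 5 genes in 7 comparisons; filled points passed an adjusted p of 0.05 over all genes. Ooep in rete heads (LP over Control, -0.90) and Padi6 in cauda (whole sperm over heads, 0.65) are the filled points.

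Because the genes differed in direction, the log2 ratio of each pair of them within an embryo was also compared. Scaling between libraries enters this ratio only through the 1 added to each CPM. These tests were added after the values were seen. The log2 ratio of Nlrp5 to Ooep averaged 1.65 ± 1.08 in rete LP and 0.72 ± 0.88 in rete Control embryos (SD, n = 23 and 22), a difference of 0.93 ± 0.29 (two-sided permutation test, adjusted p = 0.0191 over 40 tests). It was above the Control median in 20 of 23 LP embryos. The log2 ratio of Ooep to Tle6 averaged -1.05 ± 0.76 in rete LP and -0.18 ± 0.75 in rete Control embryos, a difference of -0.87 ± 0.23 (permutation adjusted p = 0.00533), and it was below the Control median in 20 of 23. These 2 of 10 ratios passed, with Ooep lower relative to each of the other core genes. In rete LP embryo 19 Ooep was at its lowest, 14.3 CPM, and Nlrp5 at the highest of its group, 547 CPM. Without this embryo the 2 differences were 0.78 (permutation adjusted p = 0.0378) and -0.80 (permutation adjusted p = 0.00733). The log2 ratios of Ooep to Padi6 and to Khdc3 did not pass (differences of -0.39 and -0.24, permutation adjusted p = 0.352 and 0.643). Each of these differences follows from the fold changes of the single genes given above, so the ratios are no separate support for the Ooep call.

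In embryos made with cauda heads the diet gave no call. Ooep had a lowest, median and highest level of 27.0, 99.2 and 350 CPM in the 17 cauda LP embryos, against 18.6, 99.8 and 392 CPM in the 20 cauda Control embryos. The medians were nearly equal and the Control median was exceeded in 8 of 17 LP embryos. Its log2 fold change was 0.26 ± 0.27 (adjusted p = 0.999), with a 95% interval of -0.29 to 0.80. The other 4 ran from -0.32 ± 0.22 for Tle6 to 0.12 ± 0.24 for Nlrp5. By limma 0 of the 5 genes and 0% of all genes passed, and 0 of the 5 and 163 of 7894 had an unadjusted p under 0.05. None of the 10 ratios passed by the permutation test, for which the Nlrp5 to Ooep difference was -0.13 ± 0.20.

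Whether the diet acted differently on the 2 sperm sources was tested by the interaction. Ooep had the largest term of the 5, -1.16 ± 0.37 on the log2 scale (unadjusted p = 0.00238, limma adjusted p = 0.247), with a 95% interval of -1.89 to -0.42. It did not pass over all genes, where 0.19% passed, and 0 of the 5 genes did. A difference between the diet effects on Ooep in rete and cauda heads is therefore not established by this test. The other 4 terms ran from -0.57 ± 0.49 for Khdc3 to 0.29 ± 0.29 for Tle6.

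Rete heads were next compared with cauda heads within each diet, to ask whether passage of sperm through the epididymis mattered for these mRNAs. In LP embryos Ooep was lower for rete heads, at a median of 63.5 CPM, against 99.2 CPM for cauda heads, with 19 of 23 rete embryos below the cauda median. The log2 fold change of -0.86 ± 0.27 did not pass (adjusted p = 0.273), and 0 of 5 genes and 0.076% of all genes did. Within embryos, the log2 ratio of Nlrp5 to Ooep averaged 1.65 ± 1.08 for rete LP and 0.52 ± 0.63 for cauda LP heads (SD, n = 23 and 17). The difference was 1.13 ± 0.27 (permutation adjusted p = 0.00533). The log2 ratio of Ooep to Tle6 averaged -1.05 ± 0.76 for rete LP and -0.03 ± 0.86 for cauda LP heads, a difference of -1.02 ± 0.26 (permutation adjusted p = 0.00533). These 2 of 10 ratios passed. They too were tested after the values were seen and follow from the fold changes of the single genes, so they are no separate support for a lower Ooep, which was not called here. The rete LP embryos are the same in this comparison and in that of diet, so the 2 sets of values are not independent.

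In Control embryos the source gave no call. Nlrp5 had a lowest, median and highest level of 47.7, 221 and 334 CPM for rete heads, against 21.5, 149 and 634 CPM for cauda heads. Although 18 of 22 rete embryos lay above the cauda median, the log2 fold change of 0.36 ± 0.23 did not pass (adjusted p = 0.327). Ooep, with medians of 123 CPM for rete and 99.8 CPM for cauda heads, had a log2 fold change of 0.30 ± 0.26 (adjusted p = 0.494). By limma 0 of the 5 genes and 0.038% of all genes passed. An unadjusted p under 0.05 was seen for 0 of the 5 and for 22.1% of all genes, and 0 of 10 ratios passed by the permutation test.

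**Figure D3:**
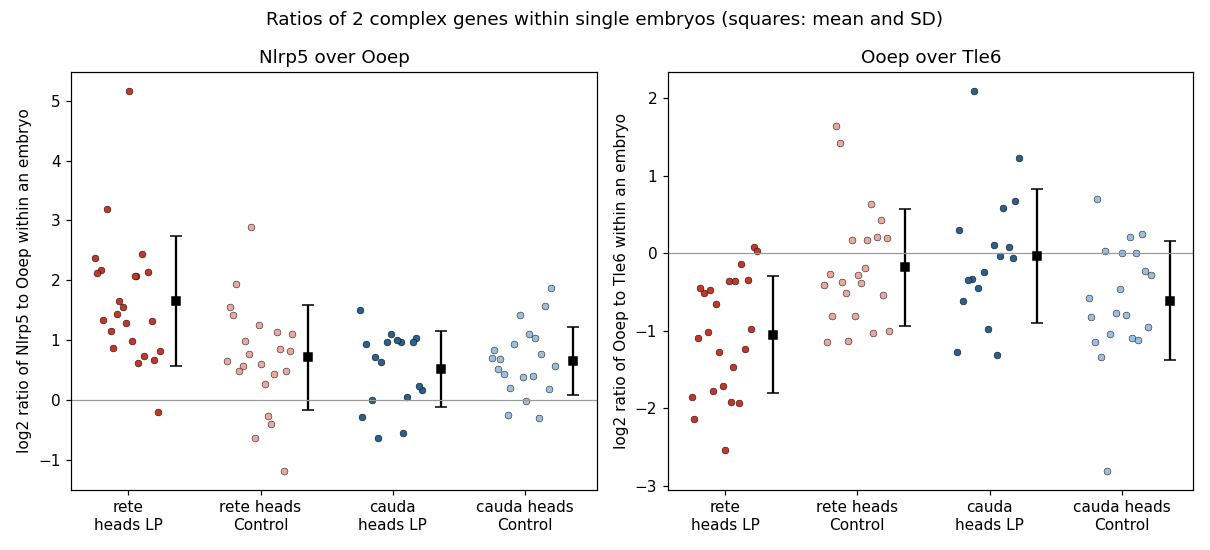
Log2 ratio of Nlrp5 to Ooep (left) and of Ooep to Tle6 (right) within each head embryo, by group; squares and bars are the mean and SD. Rete LP embryos average 1.65 for Nlrp5 over Ooep, above the rete Control mean of 0.72, and -1.05 for Ooep over Tle6, below the rete Control mean of -0.18.

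Between embryos of rete and cauda whole sperm none of the 5 genes was called, and their ranges overlapped. Padi6 had a lowest, median and highest level of 176, 280 and 440 CPM for rete whole sperm, against 175, 271 and 943 CPM for cauda whole sperm. Khdc3 had 16.2, 55.6 and 91.9 CPM for rete, against 24.5, 41.6 and 77.5 CPM for cauda whole sperm. Ooep had 54.1, 122 and 278 CPM for rete, against 65.6, 123 and 429 CPM for cauda whole sperm. Log2 fold changes ran from -0.28 ± 0.27 for Padi6 to 0.32 ± 0.32 for Khdc3, and 0 of the 5 genes passed by limma (smallest adjusted p = 0.787; 0 with an unadjusted p under 0.05). No gene passed in this comparison (0%), although 662 of 7782 tested had an unadjusted p under 0.05. With 12 against 9 embryos the intervals are wide, -0.96 to 0.46 for Ooep, so a change of the size measured in rete heads is not excluded.

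Whole sperm were then set against heads of the same source. The labels give no sequencing batch, and the whole-sperm libraries were the deeper in the median, so preparation, depth and any such batch cannot be told apart here. For the cauda, Padi6 had a lowest, median and highest level of 175, 271 and 943 CPM with whole sperm, against 110, 209 and 938 CPM with Control heads. It rose with whole sperm by a log2 fold change of 0.65 ± 0.27 (adjusted p = 0.0342), and 7 of 9 whole-sperm embryos lay above the head median. Without cauda whole-sperm embryo 4, at 943 CPM, the value was 0.47 and did not pass (adjusted p = 0.143). Nlrp5 had 68.0, 228 and 432 CPM with whole sperm, against 21.5, 149 and 634 CPM with heads (log2 fold change 0.60 ± 0.28, adjusted p = 0.0597). Ooep followed at 0.53 ± 0.33, Tle6 at 0.29 ± 0.25 and Khdc3 at -0.02 ± 0.42, and none of these 3 passed.

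In all 1 of the 5 genes passed for the cauda, where 58.7% of all genes tested passed and 24.4% were higher. After quantile normalization 4 of the 5 passed, all higher, where 65.0% of all genes passed. The median of all genes was at -0.08 as scaled by the authors, 0.24 after quantile normalization and 0.13 after median-of-ratios scaling. Relative to that median, Padi6 was 0.73 higher as scaled by the authors, 0.56 after quantile normalization and 0.74 after median-of-ratios scaling. The same values for Nlrp5 were 0.68, 0.63 and 0.69. The ribosome biogenesis score moved far more, with a median of 4.43 for cauda whole sperm and 7.26 for cauda Control heads; with that score as a covariate Padi6 was at 0.44 (adjusted p = 0.425).

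For the rete, 0 of the 5 genes passed by limma, where 33.6% of all genes passed. None of the 5 had an unadjusted p under 0.05, where 44.7% of all genes did. Nlrp5 had a lowest, median and highest level of 165, 286 and 334 CPM with whole sperm, against 47.7, 221 and 334 CPM with Control heads. Its log2 fold change of 0.45 ± 0.25 was the largest of the 5 (adjusted p = 0.155). Ooep, with medians of 122 CPM for whole sperm and 123 CPM for heads, had a log2 fold change of -0.02 ± 0.30. The interaction of source and preparation passed for 0 of the 5 genes (0.861% of all genes), with terms from -0.55 ± 0.45 for Ooep to 0.37 ± 0.56 for Khdc3.

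Across the 6 groups the order of the medians differed between genes. For Ooep it was cauda whole sperm, rete Control heads, rete whole sperm, cauda Control heads, cauda LP heads and rete LP heads, from 123 to 63.5 CPM. The first 3 of these (123, 123 and 122 CPM) and the next 2 (99.8 and 99.2 CPM) were nearly equal, so the step down to rete LP heads was the one that stood out. For Padi6 both whole-sperm groups came first, at 280 and 271 CPM for rete and cauda, and rete LP heads last, at 196 CPM. For Nlrp5 rete whole sperm came first, at 286 CPM, and cauda Control heads last, at 149 CPM. Tle6 ran from 175 CPM for cauda whole sperm to 121 CPM for cauda LP heads. Khdc3 ran from 55.6 CPM for rete whole sperm to 30.2 CPM for rete LP heads. Neighbours in each of these orders overlapped widely.

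The spread between embryos of 1 group differed between genes as well. The SD of log2(CPM + 1) in the 4 head groups was 0.86 to 1.26 for Khdc3, 0.74 to 0.93 for Ooep, 0.43 to 0.98 for Nlrp5, 0.50 to 0.88 for Padi6 and 0.45 to 0.92 for Tle6. Khdc3 is also the gene of fewest reads. The summed level of the 5 genes had a lowest, median and highest of 243, 608 and 1207 CPM in rete LP, 411, 770 and 1728 CPM in rete Control, 279, 646 and 1020 CPM in cauda LP and 394, 660 and 2323 CPM in cauda Control embryos. It was 616, 862 and 1155 CPM for rete and 697, 803 and 2045 CPM for cauda whole sperm. The sum thus varied over several fold within every head group.

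Whether the 5 mRNAs varied together was described by Pearson r of log2(CPM + 1) over the 82 head embryos after the mean of each group was subtracted. All 10 pairs were positive, with a median r of 0.37 (Spearman rho median 0.34). Tle6 with Khdc3 had the highest r, 0.50, followed by Khdc3 with Padi6 at 0.46, Ooep with Tle6 at 0.44 and Nlrp5 with Ooep at 0.42. Nlrp5 with Khdc3 was lowest, at 0.02. Khdc3 ranked 5 among 7893 genes by r with Tle6, and Ooep ranked 32. In contrast, the best-ranked member was at rank 624 (Khdc3) by r with Padi6 and at rank 399 (Ooep) by r with Nlrp5. The embryos share library scaling and stage of development, so r does not say that the genes act on each other. Without the 2 embryos farthest from the median of the first gene, r of Nlrp5 with Ooep was 0.25 and the other 9 pairs ran from 0.05 to 0.45.

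In the 21 whole-sperm embryos 9 of 10 pairs were positive, with a median r of 0.35. The 3 core genes had the highest values there, 0.65 for Nlrp5 with Tle6, 0.55 for Ooep with Tle6 and 0.50 for Nlrp5 with Ooep, while Khdc3 with Padi6 was at -0.04. Without the 2 farthest embryos these core values were 0.43, 0.37 and 0.39, below those of Tle6 with Padi6 (0.56) and Nlrp5 with Padi6 (0.55), so the place of the core pairs rests on those embryos. Within single groups r varied much: for Nlrp5 with Ooep it was -0.14 in rete LP and 0.82 in cauda Control head embryos. Ooep with Tle6 was positive in all 6 groups, from 0.22 to 0.64. Khdc3 with Padi6 ran from -0.20 in cauda whole-sperm to 0.77 in rete LP head embryos.

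**Figure D4:**
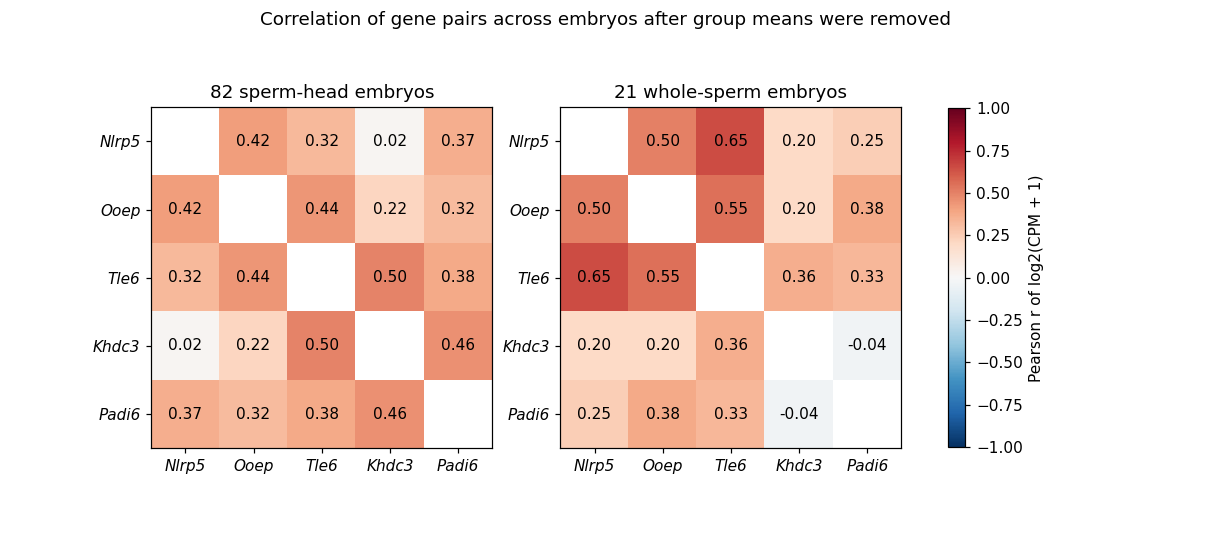
Pearson r of log2(CPM + 1) for each pair of the 5 genes after group means were subtracted, in 82 sperm-head embryos (left) and 21 whole-sperm embryos (right); the colour scale runs from -1 to 1. The 3 pairs of Nlrp5, Ooep and Tle6 read 0.42, 0.32 and 0.44 on the left and 0.50, 0.65 and 0.55 on the right.

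Among 7889 other genes, those most like the mean of the 5 genes over head embryos were Fam46c, a non-canonical poly(A) polymerase gene (r = 0.67), the oocyte growth factor gene Gdf9 (0.66), Ccno, encoding cyclin O (0.66), Actg1, encoding gamma actin (0.65), Fsd1 (0.64), the kinase gene Mapk3 (0.64), the calponin gene Cnn1 (0.64) and the rabphilin gene Rph3a (0.64). The median over all genes was 0.09, with 5% of genes under -0.28 and 5% over 0.47. The most opposite were Gmnn, which encodes the replication licensing inhibitor geminin (-0.63), the mitochondrial import gene Timm23 (-0.59), the translation initiation gene Eif4e (-0.59) and Ngrn (-0.58). In the whole-sperm embryos, which the ranking did not use, 11 of these 12 genes had an r of the same sign. The values were 0.54 for Fam46c, 0.59 for Ccno, 0.57 for Actg1, 0.58 for Rph3a, -0.65 for Gmnn and -0.66 for Eif4e, whereas Gdf9 was at -0.04 and Ngrn at -0.05.

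The ribosome biogenesis genes ran against the complex in head embryos, their list having a median r of -0.18 with the mean of the 5 genes, and 5 of 62 were positive. The score of this list was very low (over 3 median absolute deviations below the median) in 9 of 82 head embryos. Relations were computed over the other 73, with group means subtracted, and r pooled over all 82 was not computed. This choice of embryos and the tests of these relations were not planned beforehand. Over these 73 embryos all 5 genes were negatively related to the score: Padi6 with r = -0.46, Nlrp5 with -0.45, Ooep with -0.39, Tle6 with -0.38 and Khdc3 with -0.35. Spearman rho was -0.52, -0.50, -0.44, -0.36 and -0.28 in that order. The permutation p-values adjusted over 10 relations were 4e-04 to 0.00696 for r and 1e-04 to 0.0429 for rho. Without the 2 embryos of most extreme score among these, r ran from -0.52 for Padi6 to -0.28 for Khdc3. With the low-score embryos kept, r within single head groups was negative in 4 of 4 groups for Nlrp5 and in 3 for Ooep, but in 2 for Padi6 and in 1 each for Tle6 and Khdc3. It ran up to 0.33 for Padi6 in rete LP and to 0.26 for Tle6 and 0.24 for Khdc3 in cauda LP embryos. In cauda Control embryos it was -0.84 for Padi6, -0.52 for Tle6 and -0.35 for Khdc3. For these 3 genes the direction thus differed between groups. These values are of single groups and those over 73 embryos are pooled, so the part of the low-score embryos was not tested. In the 21 whole-sperm embryos r was between -0.21 and 0.18 and no relation passed by the permutation test (smallest adjusted p = 0.621).

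**Figure D5:**
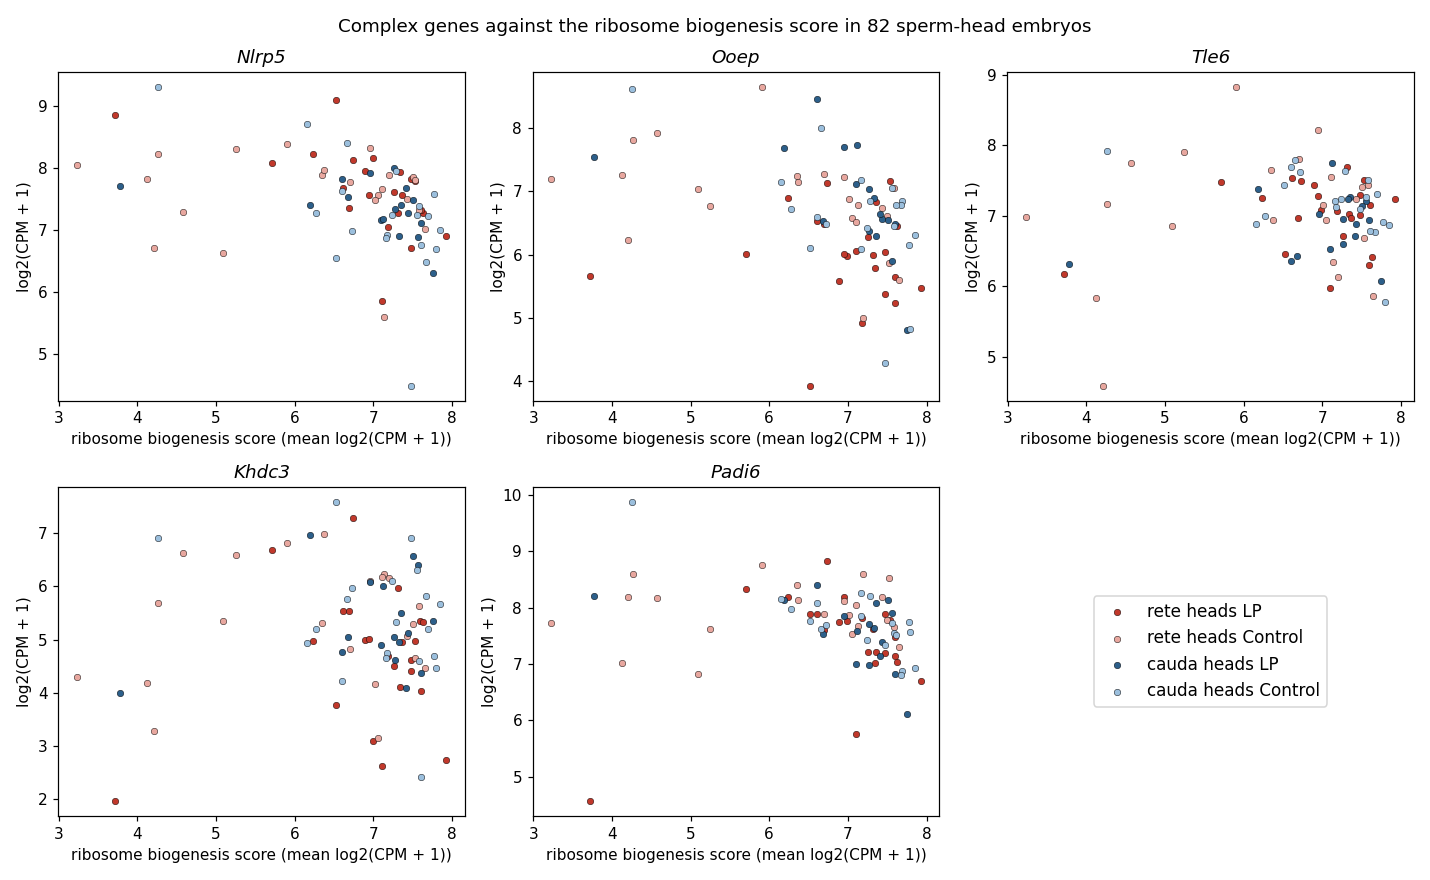
Log2(CPM + 1) of each gene against the ribosome biogenesis score, the mean log2(CPM + 1) of 62 genes, with 1 point per head embryo and colours for the 4 head groups. Most embryos lie at scores above 6, and 9 embryos, 6 of them rete Control, have very low scores of 3.23 to 5.09. Over the 73 embryos without a very low score r is -0.46 to -0.35.

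The 9 embryos of very low score did not share 1 pattern for the complex. In cauda Control embryo 23 all 5 genes were above their group's median, with Padi6 at 938 CPM and Nlrp5 at 634 CPM. In rete LP embryo 11 Nlrp5 was high at 462 CPM, while Padi6 was at 22.8 CPM and Khdc3 at 2.92 CPM. Of the 6 rete Control embryos, 5 were above the group's median for Ooep, 3 for Nlrp5, 3 for Padi6, 3 for Khdc3 and 2 for Tle6.

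Genes associated with the complex and its relatives were read from lists. Of 10 listed partners or co-residents of the lattices 9 were in the table (Nlrp2, Nlrp4f, Nlrp14, Zbed3, Uhrf1, Ube2d3, Cfl1, Tubb2b and Skp1a). Of these, 0 passed between LP and Control rete heads by limma, 3 had an unadjusted p under 0.05, as did 22.9% of all genes, and 8 were negative, with a median log2 fold change of -0.51, where the median of all genes was -0.03. The smallest p-values belonged to the ubiquitin-conjugating enzyme gene Ube2d3 (-0.76 ± 0.23, adjusted p = 0.0668) and the SCF ubiquitin ligase subunit gene Skp1a (-0.76 ± 0.28, adjusted p = 0.108). None passed between LP and Control cauda heads by limma (median -0.21, 0 with an unadjusted p under 0.05). For cauda whole sperm against heads, 4 of 9 were higher and 1 was lower, where 24.4% of all genes were higher and 34.3% lower. Zbed3, a zinc-finger partner of the complex in mouse (1.84 ± 0.44, adjusted p = 2.87e-04), and Skp1a (1.15 ± 0.35, adjusted p = 0.00364) rose, and the actin-severing gene Cfl1 fell (-0.82 ± 0.21, adjusted p = 4.79e-04). For rete whole sperm against heads, where 14.1% of all genes were higher and 19.5% lower, 1 was higher and 1 lower: Uhrf1, a maintenance methylation factor, rose (0.99 ± 0.35, adjusted p = 0.0247) and Cfl1 fell (-0.46 ± 0.19, adjusted p = 0.0434).

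Of 29 listed relatives by family 15 were in the table, and 0 of them passed between LP and Control rete heads by limma, 4 had an unadjusted p under 0.05 (22.9% of all genes) and 12 were negative (median -0.55). Khdc1c (-1.12 ± 0.35, adjusted p = 0.0715) and Khdc1b (-0.78 ± 0.29, adjusted p = 0.116), of the KH-domain family that includes Khdc3 and Ooep, had the smallest p-values; Khdc1 genes are near-identical copies among which reads may be divided. For cauda whole sperm against heads 7 of 15 rose and 2 fell (24.4% and 34.3% of all genes), among them Khdc1b (2.59 ± 0.37) and Khdc1a (1.39 ± 0.34) upward, and Dppa5a (-3.56 ± 0.51) and the Groucho gene Tle4 (-0.87 ± 0.39) downward. For rete whole sperm 4 rose and 1 fell (14.1% and 19.5% of all genes), again with Khdc1b (1.66 ± 0.33) and Khdc1a (1.12 ± 0.30) upward and Dppa5a (-1.38 ± 0.45) downward. Dppa5a, a KH-domain gene that neighbours Ooep on chromosome 9, thus fell with whole sperm from either source, while Ooep gave no call.

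Of 27 other oocyte genes, 0 rose and 4 fell in LP against Control rete heads, where 1.1% of all genes fell, and 23 were negative, with a median of -0.56. Oas1e (-1.46 ± 0.35, adjusted p = 0.0182) and the Bcl2-family gene Bcl2l10 (-1.28 ± 0.33, adjusted p = 0.0304) had the smallest p-values. The mean log2(CPM + 1) of this list had a median of 6.91 in rete LP and 7.54 in rete Control embryos. Of 26 genes that are switched on at the 2-cell stage, 0 passed there by limma (5 with an unadjusted p under 0.05, against 22.9% of all genes), Pramef25 (0.80 ± 0.29) and Pramel7 (1.50 ± 0.59) having the smallest p-values. Of 62 ribosome biogenesis genes 2, Utp14a and Nop14, rose (1.36 ± 0.35 and 1.32 ± 0.35, limma adjusted p = 0.0278 and 0.0304). In this list 60 were positive, and of all 7894 genes 31 rose. Against cauda Control heads, cauda whole sperm gave 12 higher and 1 lower oocyte gene, among them Gdf9 (1.52 ± 0.32) and Bmp15 (1.64 ± 0.38) upward and Dppa3 (-1.44 ± 0.28) downward, and 60 of 62 ribosome biogenesis genes lower. The 26 genes of the 2-cell stage were split there, with 11 higher and 7 lower. Of all genes 24.4% were higher and 34.3% lower in this comparison.

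Markers of other cells were few in the table. Of 14 cumulus cell markers 3 were listed, and their summed level had a lowest, median and highest of 7.31, 285 and 381 CPM in rete LP and 133, 252 and 446 CPM in rete Control embryos. Serpine2 fell in rete LP embryos (-1.39 ± 0.36, limma adjusted p = 0.0304), where 1.1% of all genes fell. Amhr2 and Gja1 went the other way, with log2 fold changes of up to 1.22, and did not pass. The 3 markers thus shared no direction. The part of these markers in the result for Ooep was not tested. Of 11 sperm markers 2 were listed, of 8 testis somatic markers 1, of 7 epididymal markers 1 and of 5 blood markers 0. None of these passed in the diet comparison of rete heads by limma (smallest adjusted p = 0.199), with 1 of the 4, Odf2, at an unadjusted p under 0.05.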

How the data were processed

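RNA of single 2-cell embryos was converted to libraries with a Nextera-based single-cell kit, per the labels' protocols, and Bowtie and the mm10 build are named in the submitters' processing notes. For these tools no version, and for the counting no program, annotation or strand setting, was given in the sources used here. One table of 7894 genes in CPM was deposited by the authors, with zeros written as 0.1. Its columns held 92.08 to 98.15% of the CPM total. A median of 86.5% of values per embryo were whole multiples of 1 read (within 0.001), too few to treat the values as counts.

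Values were tested as log2(CPM + 1) with limma 3.58.1 (trend and robust settings, R 4.3.3), keeping genes that reached 5 CPM in 9 embryos, with Benjamini-Hochberg adjustment over all genes tested. Head groups were fitted together over 82 embryos, whole sperm over 21 and preparation over all embryos. Ratios and relations used two-sided tests of 100000 permutations (scipy 1.17.1). The code was tested on simulated data.

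The 5 genes and all lists were chosen with earlier results of these data known. Besides the 5 genes, up to 2 genes per list and direction of smallest p were named, and the 8 genes most like and 4 least like the mean of the 5. Pseudocount, filter, scaling, embryo weights, embryos of few genes, embryos in the fit, replicate number and ribosome score were varied. Sequences are from RefSeq.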

Additional observations from a re-analysis of the deposited data

Results flagged for a closer look

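Padi6 in cauda whole-sperm embryo 4 stood apart from its group, at 943.3 CPM, where the other 8 embryos ran from 175 to 512 CPM. Its gap to the next embryo was 0.561 of the group's range in CPM, above the critical value of 0.493 for 9 embryos in Dixon's test. On the log2(CPM + 1) scale of the other tests it was not run, so the flag holds for CPM only. The test was run for the 5 genes in this group, the only one of 10 embryos or fewer. Chance marks about 1 in 20 such tests, so a mark among 5 genes is more likely than that.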

How the results depend on the processing

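The count of the 5 genes called between LP and Control rete heads, 1 as reported, was 0 with embryo weights (Ooep -0.70, limma adjusted p = 0.104), 0 with the replicate block (-0.91, adjusted p = 0.0521), 0 with the ribosome score as covariate (-0.68, adjusted p = 0.173) and 0 with only the 2 groups in the fit (-0.90, adjusted p = 0.0830). The cause was not tested. For the source in LP heads it was 1 with embryo weights (Ooep -0.65, adjusted p = 0.0487), against 0 as reported. For cauda whole sperm against heads, 1 as reported, it was 4 after quantile normalization (Nlrp5, Ooep, Tle6 and Padi6), 2 with median-of-ratios scaling, 2 with embryo weights and 0 with the ribosome score as covariate. Without embryos of few genes it stayed at 1, but the gene was Nlrp5 (0.68, adjusted p = 0.0209) and not Padi6 (0.56, adjusted p = 0.0538). The other 107 counts and summaries stayed within 1.5 times the reported value, the median r of the pairs at 0.34 to 0.38. Many of these were counts of the 5 genes that were 0 in every setting, so they say little about stability.

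Leaving out 1 embryo at a time, an alternative added after seeing the data, gave 0 to 1 calls for the diet in rete heads. The Ooep call was lost without any of rete LP embryos 5, 7, 8, 9, 15, 18, 19, 22 and 24 or rete Control embryos 1, 2, 4, 8, 14, 15, 16 and 17 (adjusted p 0.0197 to 0.0778 over all 45). For cauda whole sperm against heads it gave 0 to 2 calls, with Padi6 between 0.47 and 0.77 (adjusted p 0.00942 to 0.143). That call was lost without any of cauda whole-sperm embryos 4, 5, 7 and 10 or cauda Control embryos 1, 5 and 7. Over all genes, calls ran from 14 to 810 over the planned settings for the diet in rete heads (118 as reported, 31 higher and 87 lower, but 143 and 149 after quantile normalization and 217 and 130 with median-of-ratios scaling). They ran from 504 to 5463 for cauda whole sperm against heads (4634 as reported, 1929 higher and 2705 lower, but 2776 and 2351 after quantile normalization), 845 to 4393 for the rete (2654), 0 to 267 for the interaction of source and preparation (68), 0 to 265 for the source in LP heads (6), 2 to 16 in Control heads (3) 15 to 73 for the interaction of diet and source (15), 0 to 50 for the source in whole sperm (0) and 0 to 12 for the diet in cauda heads (0). Same-numbered embryos of different groups had deviations with a median r of 0.0075 over 115 pairs (40 above 0.1). Those with different numbers had a median r of 0.0049 over 2504 pairs (861 above 0.1). No pairing by number was seen, but the latter pairs ran from -0.66 to 0.82, so the check could not show a weak link. Khdc3, at a few reads in the lowest embryos, is limited most by depth.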
